A study of Mus musculus with 23 samples.

Results

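Des, Speg and Obsl1 are 3 neighbouring genes of mouse chromosome 1 whose products are best known from striated muscle. They were chosen by name, and all 3 have a row in each of the 5 deposited tables of comparisons, among 78, 74, 79 and 72 listed genes for Inv1, Inv2, Inv3 and Inv4, and 34682 genes for the deletion of a CTCF site. Polyadenylated RNA was sequenced from distal forelimbs dissected at E11.5, when the limb is still a bud. The groups were Inv1 (3 libraries), Inv2 (4), Inv3 (3) and Inv4 (3), each set against wild type (WT, 5 libraries), and Inv1DelCTCF (2 libraries), which by its name carries a deleted CTCF site on the Inv1 background and was set against the same 3 Inv1 libraries. The mutants were made with CRISPR/Cas9, and the inversions bring enhancers from the Epha4 domain into a region dense with genes, so the comparisons ask how genes there respond. The labels give the genotype only as WT or mutant, and name G4 embryonic stem cells as the cell type of every sample. The series' design calls the libraries biological replicates, but breakpoints and the number of clones or litters in a group are not given in the sources used here. Every p-value therefore refers to variation among these libraries alone. A gene has 1 value per comparison, so library depth is unknown, no sample's own value can be shown, and scatter enters only as the standard error (SE) the authors fitted.

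Desmin, the product of Des, is the muscle intermediate filament that ties Z-discs to each other and to the cell surface. It is made in myoblasts and muscle fibres and also in smooth muscle cells and pericytes. Speg encodes a large kinase of the titin and obscurin family at the triad, where the membrane signal meets the calcium store, and its locus also gives shorter smooth muscle isoforms. Obsl1 encodes obscurin-like 1, a cytoskeletal linker that binds titin and myomesin in muscle and, in most other cells, acts with Cul7 and Ccdc8 in the 3M complex, known from a human growth disorder. In the limb bud, skeletal muscle arises from precursors that migrate in from the somites, so bulk RNA of the distal limb mixes few muscle cells with much mesenchyme, and in such samples fewer cells of a type and less RNA per cell cannot be told apart.

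In annotation order on GRCm38, the genes run Dnpep, Des, Speg, Gmppa, Asic4, Chpf, Tmem198, Obsl1, Inha, Stk11ip and Slc4a3. Des and Speg lie next to each other, and of these only Des passed an adjusted p under 0.05, in Inv3 and Inv4. The difference between the 2 genes was not tested. The 250 bases before each annotated start are shown as a description only. They are RefSeq sequences of GRCm38.p6 on chromosome 1, a later build than the mm9 of the submitters' processing notes, at chr1:75360042-75360291 (plus strand) for Des, chr1:75375047-75375296 (plus) for the first of 4 annotated Speg starts, and chr1:75506453-75506702 (minus) for Obsl1. Capitals mark E-boxes (CANNTG, the same on both strands), the sites that myogenic factors can bind, and in Speg also a MEF2 consensus.
Des: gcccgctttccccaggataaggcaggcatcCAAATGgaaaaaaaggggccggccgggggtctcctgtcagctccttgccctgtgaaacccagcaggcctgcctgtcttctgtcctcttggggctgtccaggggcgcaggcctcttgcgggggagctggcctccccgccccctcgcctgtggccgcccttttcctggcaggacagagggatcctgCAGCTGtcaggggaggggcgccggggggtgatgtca
Speg: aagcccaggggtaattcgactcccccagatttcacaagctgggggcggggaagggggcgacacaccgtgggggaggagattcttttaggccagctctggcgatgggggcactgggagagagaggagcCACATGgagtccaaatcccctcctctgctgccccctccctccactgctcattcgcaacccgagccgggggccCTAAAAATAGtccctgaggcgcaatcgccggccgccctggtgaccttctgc
Obsl1: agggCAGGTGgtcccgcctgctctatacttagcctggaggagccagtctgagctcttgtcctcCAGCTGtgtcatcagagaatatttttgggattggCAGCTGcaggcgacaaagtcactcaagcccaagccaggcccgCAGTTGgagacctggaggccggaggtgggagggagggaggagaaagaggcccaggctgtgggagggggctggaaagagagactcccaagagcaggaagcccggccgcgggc
The windows held 2 E-boxes in Des, 1 in the first Speg start and 4 in Obsl1. The other Speg starts held 1, 4 and 1, and 66.2% of 32851 promoter windows of the same length held at least 1. The E-box of Des nearest to its start began at base -36. The MEF2 match of Speg, on either strand the only one among the 3 windows, began at base -51, and 2.92% of all windows held such a match. A CArG box, which 1.47% of all windows held, and the letters TATAAA on either strand, which 12.4% held, were in none of the 3. GC content was 67.2% in the Des window, 63.6% in that of Speg and 62.0% in that of Obsl1, against a median of 52.4% over all windows. These are matches of letters only, and no binding was measured.

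All 3 genes were detected, Obsl1 most strongly. The mean normalised count over the 18 libraries of the inversions and WT was 405.6 for Des, 1002 for Speg and 5194 for Obsl1 in the authors' deposited table. Group levels were rebuilt from these means and the deposited log2 changes. For Des the rebuilt level was 349.8 in Inv1, 423.4 in Inv2, 523.7 in Inv3 and 497.1 in Inv4, against 298.9 in WT. Des thus stood highest in Inv3, then Inv4, Inv2, Inv1 and WT. Speg had rebuilt levels of 1055, 950.4, 1059 and 979.5 in Inv1 to Inv4, against 992.2 in WT. Obsl1 had 5563, 5100, 5636 and 4944 in Inv1 to Inv4, against 4934 in WT. Both stayed within a narrow band, with Inv3 and Inv1 at its upper end. Per kilobase of the longest GENCODE transcript (3028, 10801 and 5679 bases), the rebuilt WT level was 98.7 for Des, 91.9 for Speg and 868.8 for Obsl1. On that scale Obsl1 was 5.74 times as abundant as Des in Inv3 and 8.80 times in WT.

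**Figure D1:**
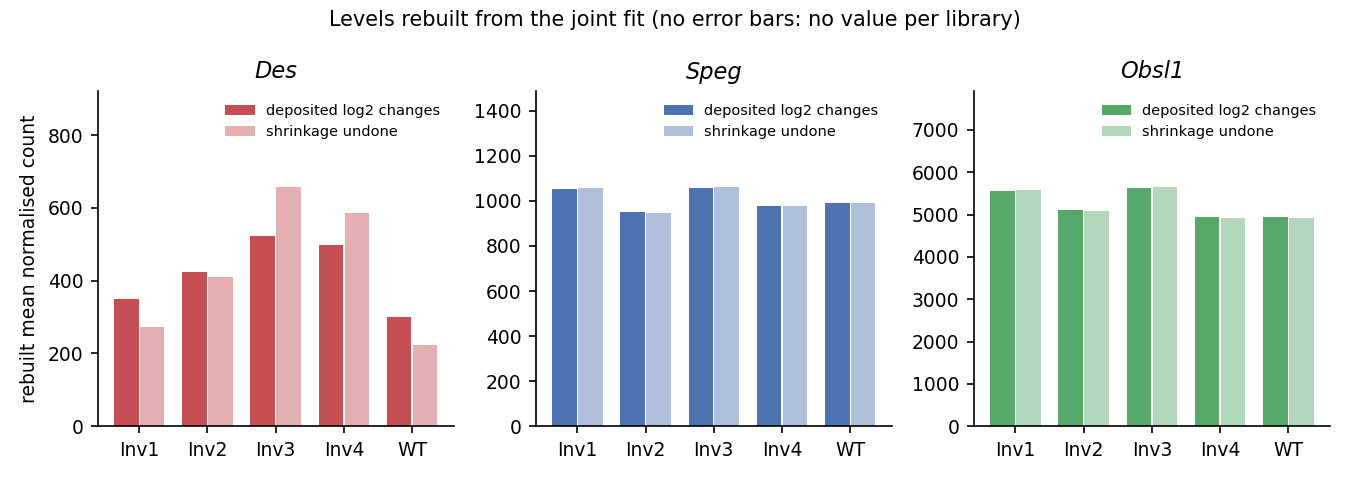
Levels of Des, Speg and Obsl1 in each group as mean normalised counts rebuilt from the joint fit, from the deposited log2 changes (full colour) and after undoing their shrinkage (pale). In full colour Des stands between 349.8 and 523.7 in the inversions against 298.9 in WT, while the bars of Speg and Obsl1 are nearly level. The pale bars of Des spread further, from 223.5 in WT to 657.8 in Inv3. There are no error bars because no value per library was used.

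Des rose in Inv3 and in Inv4. In Inv3 it was 1.75-fold higher than in WT (95% interval 1.22 to 2.52, log2 change 0.81, SE 0.268, adjusted p = 0.0129, authors' DESeq2 Wald test) in the authors' deposited table. In Inv4 it was 1.66-fold higher (1.16 to 2.39, log2 change 0.73, SE 0.268, adjusted p = 0.0339, DESeq2) in the authors' deposited table. In Inv2 its log2 change was 0.50 (SE 0.268, adjusted p = 0.359, DESeq2) and in Inv1 it was 0.23 (SE 0.268, adjusted p = 0.959, DESeq2) in the authors' deposited table, and neither passed. All 4 point estimates lay above 0, but the 4 comparisons share the WT libraries and are not independent. Neither call holds at an adjusted p under 0.01. The deposited changes of Des appear pulled toward 0, as described below, so the coverage of these intervals need not be 95%. With that pull undone, Des was 2.94-fold higher in Inv3 and 2.63-fold higher in Inv4, each above the upper bound given here.

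**Figure D2:**
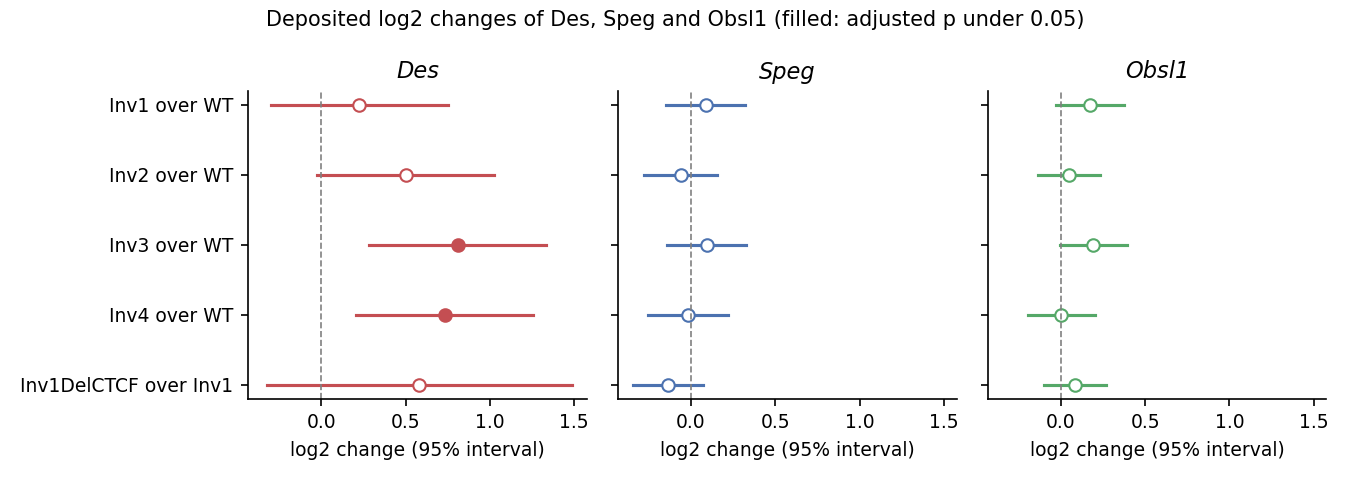
Deposited log2 changes with 95% intervals for Des, Speg and Obsl1 in the 5 comparisons, the first group named over the second. Filled points passed an adjusted p under 0.05, which holds for Des in Inv3 (0.81) and Inv4 (0.73) and for no value of Speg or Obsl1; the intervals of Des are wider than those of its neighbours.

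Speg and Obsl1 passed in none of the inversions. The log2 changes of Speg were 0.09 (SE 0.119) in Inv1, -0.06 (SE 0.111) in Inv2, 0.09 (SE 0.120) in Inv3 and -0.02 (SE 0.121) in Inv4 in the authors' deposited table. The lowest and highest bounds of its 95% intervals were -0.28 and 0.33, so larger changes of this kinase gene lay outside every interval. For Obsl1 the log2 changes were 0.17 (SE 0.101), 0.05 (SE 0.094), 0.19 (SE 0.101) and 0.00 (SE 0.102) in Inv1, Inv2, Inv3 and Inv4 in the authors' deposited table, and the DESeq2 adjusted p was 0.835, 0.868, 0.151 and 0.989 in the same order. Its interval in Inv3 ran from -0.01 to 0.39. The median log2 change of all listed genes was 0.09 in Inv1 and 0.01 in Inv3, and 76.9% of the listed genes had a positive value in Inv1.

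These calls stand in tables with very different numbers of calls. In Inv3, 1 of the 3 genes was called, where 32.9% of the 79 listed genes were called, 16.5% higher and 16.5% lower. In Inv4 it was 1 of 3, where 20.8% of 72 were called, 13.9% higher and 6.94% lower. In Inv1, 8.97% of 78 listed genes were called (7.69% higher and 1.28% lower), and in Inv2 4.05% of 74 were (2.7% higher and 1.35% lower). None of the 3 genes was called in either, and none had an unadjusted p under 0.05 in the DESeq2 Wald test. The deposited p over the adjusted p gives an upper limit on the share of all tested genes with a p as small. For Des this limit was 19.6% in Inv3, 18.1% in Inv4 and 16.9% in Inv2. In Inv1 the limit was 41.5%. By size, the log2 change of Des ranked 7 from the highest among 79 genes in Inv3 and 6 among 72 in Inv4.

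No difference between inversions passed for any of the 3 genes. The 6 pairs of inversions gave 18 differences of log2 changes, each divided by the SE of a difference of independent values, with Benjamini-Hochberg adjustment over all genes listed in both tables. None passed and none had an unadjusted p under 0.05. The comparisons share the WT libraries, so this SE is too large and the test is conservative. With that covariance taken out, Des in Inv3 minus Inv1 had an SE of 0.299 and an unadjusted p of 0.0518 in the same normal test. Still none passed. Shares passing at an adjusted p under 0.05 are over these short lists and not over the genome. They were 8.11% of 74 genes (Inv2 and Inv1), 23.1% of 78 (Inv3 and Inv1) and 13.9% of 72 (Inv4 and Inv1). In the other pairs 4.05% (Inv3 and Inv2), 4.17% (Inv4 and Inv2) and 4.17% (Inv4 and Inv3) passed. The difference farthest from 0 was that of Des in Inv3 minus Inv1, 0.58 (SE 0.379, 95% interval -0.16 to 1.32, adjusted p = 0.324 in this normal test over the fits of DESeq2). Its value in Inv4 minus Inv3 was -0.08 (interval -0.82 to 0.67). Neighbours in the order Inv3, Inv4, Inv2, Inv1 were therefore not separated, and the width of these intervals does not show that the inversions act alike on Des. The intervals of Speg spanned -0.47 to 0.48 over the 6 pairs and those of Obsl1 -0.47 to 0.42.

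Neither gene beside Des was called higher in Inv3 or Inv4. Dnpep, an aminopeptidase gene and the centromeric neighbour of Des, fell by 0.16 (SE 0.064, adjusted p = 0.0432) in Inv3 and by 0.18 (SE 0.065, adjusted p = 0.0330) in Inv4, and rose by 0.56 (SE 0.063) in Inv1, on the log2 scale by DESeq2 in the authors' deposited table. Speg, on the telomeric side, and Gmppa, a sugar nucleotide enzyme gene with log2 changes between -0.05 and 0.10, passed in no inversion in the authors' deposited table. Asic4, an ion channel gene with a mean of 10.2, had log2 changes of 0.53 (SE 0.268, adjusted p = 0.127) in Inv3 and 0.15 (SE 0.267) in Inv4 by DESeq2 in the authors' deposited table. Chpf, a chondroitin polymerising factor gene, and Tmem198 stayed between -0.16 and 0.11 in all 4 inversions and passed in none. Past Obsl1, Inha, the inhibin alpha gene, rose by 0.48 (SE 0.156, adjusted p = 0.0109) and Slc4a3, an anion exchanger gene, by 0.39 (SE 0.131, adjusted p = 0.0151) in Inv3 by DESeq2 in the authors' deposited table. In Inv4 their values were 0.24 (SE 0.159) and 0.12 (SE 0.132), and they did not pass. Stk11ip, between them, had log2 changes from -0.11 to 0.12 and passed in no inversion. Among the 8 other listed genes from Dnpep to Slc4a3, 2 rose and 1 fell in Inv3, and none rose and 1 fell in Inv4, with medians of 0.03 and -0.03.

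**Figure D3:**
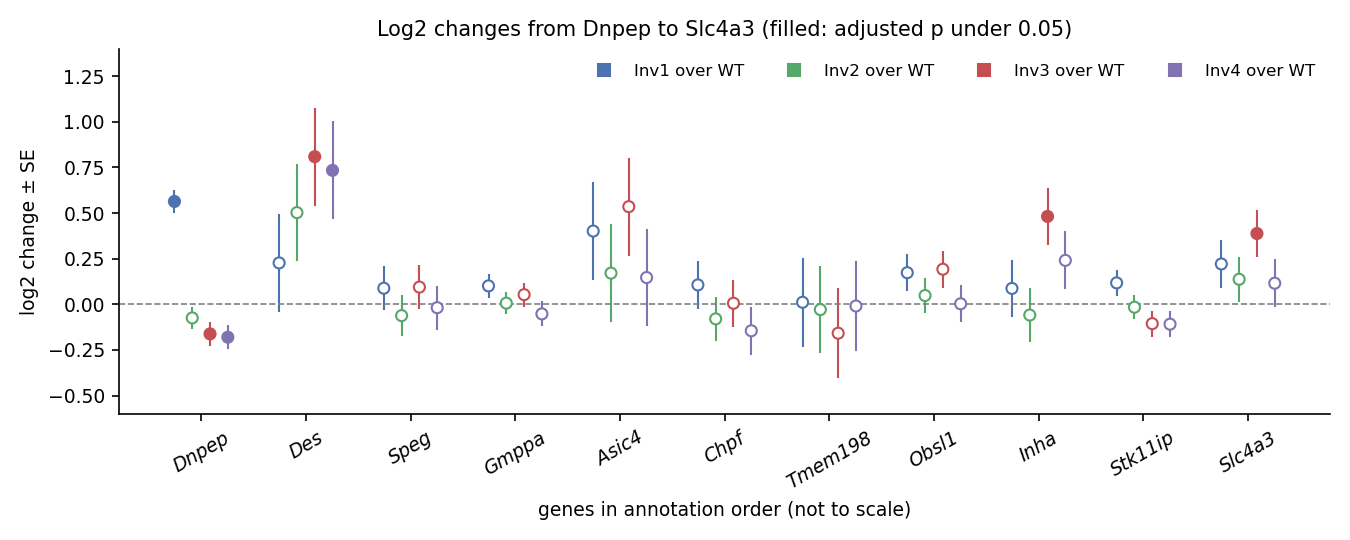
Log2 changes with SE of the 11 genes from Dnpep to Slc4a3 in annotation order, in Inv1, Inv2, Inv3 and Inv4 over WT. Filled points passed an adjusted p under 0.05; Des is filled at 0.81 and 0.73 in Inv3 and Inv4 between Dnpep, which is filled at -0.16 and -0.18, and Speg, which has no filled point.

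Counting can mix some of these genes. In GENCODE M21 the antisense RNA Gm15179 overlaps the end of Des by 368 bases on the opposite strand and is listed at 0 in the Inv1DelCTCF table. Gm15178 overlaps Speg by 4233 bases on the opposite strand, and the gene spans of Tmem198 and Obsl1 overlap by 6174 bases on opposite strands. Whether counting used the strand is not given in the sources used here. Tmem198 had a mean of 20.7 in the authors' deposited table, far below the 5194 of Obsl1.

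Des was much less precise than other genes of its abundance. Its SE of 0.268 ranked 4, 5, 3 and 2 from the largest among the genes listed for Inv1, Inv2, Inv3 and Inv4. The other genes with an SE above 0.25 numbered 11, 12, 10 and 11, and every one had a lower mean than Des, with a highest mean of 113.4. In the table of Inv1DelCTCF and Inv1, which comes from a separate fit, the SE of Des was 0.460 at a mean of 340.3 in the authors' deposited table. The median SE of the 1690 genes within 1.5-fold of that mean was 0.151, and 24 of them (1.42%) had a larger one. Of those 1690 genes, 9 belong to the sarcomere, M-band, triad and myogenic lists described below, and their median SE was 0.456. Speg, with an SE of 0.106, had 37.6% of 2604 genes of like mean above it, and Obsl1, with 0.092, had 6.80% of 1617. The SE of Des was thus of the size found in muscle genes of similar abundance. That of Speg was near the median of 0.101 for all genes of like mean, and below the median of 0.401 for the 11 muscle genes among them.

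**Figure D4:**
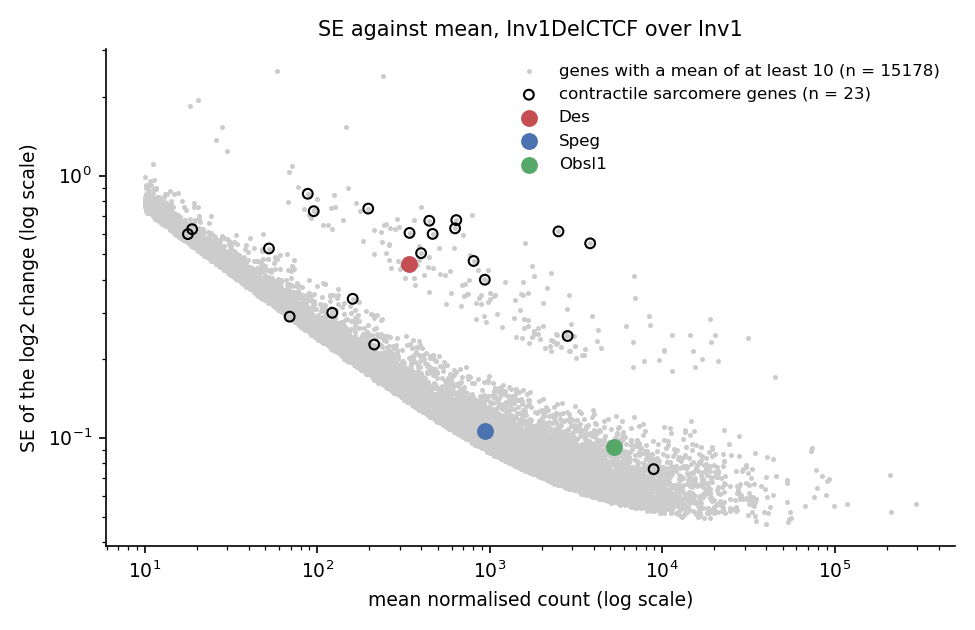
SE of the log2 change against the mean normalised count for 15178 genes with a mean of at least 10 in the table of Inv1DelCTCF over Inv1, both axes on a log scale. Des (SE 0.460) lies above the main cloud among contractile sarcomere genes (open circles), and Speg (0.106) and Obsl1 (0.092) lie inside it.

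The deposited log2 changes of Des also appear pulled toward 0 more than those of Speg and Obsl1. The largest SE in the 4 inversion tables was 0.268, 0.269, 0.268 and 0.268, a ceiling of the kind that a normal prior on group effects gives. A model with such a prior of SD 0.381 gives ceilings of 0.268 for groups of 3 libraries and 0.269 for the group of 4. That SD was fitted to these same largest SE, so the sizes match by construction. Only the ratios between groups were free. Inv2 over the mean of the others was 1.003 as observed and 1.004 in the model. With this shrinkage undone, a step chosen after seeing the data, the log2 changes of Des became 0.28 in Inv1, 0.87 in Inv2, 1.56 in Inv3 and 1.39 in Inv4, which is 2.94-fold in Inv3 and 2.63-fold in Inv4. The SE grew with them, to 0.527 in Inv3, so the ratio of change to SE was 2.96 against 3.02 as deposited. In Inv1 that ratio was 0.53 against 0.85. The deposited SE of Des lies close to the ceiling, where a lower and a higher precision can give the same SE. The higher was taken, so the sizes for Des with shrinkage undone are only loosely fixed. The log2 changes of Speg and Obsl1 hardly moved (0.10 and 0.20 in Inv3). The Inv1 levels of the separate fit allowed a partial check. Over 9 genes with an SE above 0.2 and a mean of at least 20, the median absolute residual between both fits fell to 0.174 with shrinkage undone, against 0.373 as deposited. For Des itself it was 0.20 with shrinkage undone and -0.16 as deposited, which are of like size.

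Muscle markers could be set beside Des in few places in the inversion tables. Pax3, a transcription factor gene of migrating muscle precursors, was at 0.373 of the WT level in Inv3 (95% interval 0.284 to 0.490), 0.558 in Inv4, 0.538 in Inv2 and 0.744 in Inv1 in the authors' deposited table. It fell in Inv2, Inv3 and Inv4 by the DESeq2 test. Pax3 was thus lower in both inversions in which Des was higher. Prkag3, the gene of an AMP kinase subunit found in skeletal muscle, rose with log2 changes of 1.28 (SE 0.257) in Inv3 and 3.01 (SE 0.253) in Inv4 in the authors' deposited table, and with shrinkage undone these were 1.90 and 4.92. Both are themselves among the chromosome 1 genes that the short tables list, so they are no independent markers of muscle content, and the part of muscle cell number in the rise of Des was not tested.

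By likeness of pattern over the 4 comparisons with WT, the nearest of the 72 genes in all 4 tables to Des was Kcne4, with a mean absolute difference of 0.19 in log2 change. Kcne4 had log2 changes of 0.20, 0.62, 1.26 and 0.91 in Inv1, Inv2, Inv3 and Inv4 in the authors' deposited table. Cdk5r2 (0.25) and Wnt10a (0.26) followed. All 3 had means under 52 normalised counts. By Wald scores the nearest to Des was Igfbp5, with a mean of 21640, and Kcne4 came after Wnt10a. The nearest to Speg were Serpine2 (0.037), Gmppa (0.039) and Rnf25 (0.041), and to Obsl1 Rnf25 (0.046), Stk36 (0.051) and Zfand2b (0.057). These distances rest on comparisons that share the WT libraries and are a description only.

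In Inv1DelCTCF none of the 3 genes passed. The log2 change of Des was 0.58 (SE 0.460, 95% interval -0.32 to 1.48, adjusted p = 0.435, DESeq2) over Inv1 in the authors' deposited table, given with reversed sign, so that values above 0 are higher in Inv1DelCTCF. Its rebuilt levels were 425.0 in Inv1DelCTCF and 283.8 in Inv1. The value of Speg was -0.14 (SE 0.106, adjusted p = 0.426, DESeq2) and that of Obsl1 0.08 (SE 0.092, adjusted p = 0.592, DESeq2) in the authors' deposited table. The rebuilt levels were 887.3 in Inv1DelCTCF and 975.1 in Inv1 for Speg, and 5410 in Inv1DelCTCF and 5102 in Inv1 for Obsl1. None of the 3 had an unadjusted p under 0.05 by DESeq2, where 2928 of the 11218 genes with an adjusted p did. Of the 11218, 11.7% were called, 3.81% higher and 7.89% lower. With a trend in GC content and transcript length subtracted, 207 genes were called higher and 177 lower, against 427 and 885 as deposited. Obsl1 then passed at 0.33 (SE 0.092, adjusted p = 0.0171 from a normal test over the DESeq2 SE) and the sign of Speg turned to 0.14 (adjusted p = 0.536). The transcripts of Speg and Obsl1 hold 62.6% and 62.5% GC, against a median of 49.7% over the genes tested.

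This table covers the genome, so the partners of the 3 proteins could be read in it. Of 24 contractile sarcomere genes, 23 had a value, and Myh8 was listed at 0. All 23 lay above 0, with a median log2 change of 0.81 higher in Inv1DelCTCF, against -0.01 over all genes tested, of which 46.9% were above 0. Only Tpm1, a tropomyosin gene, was called among the 17 with an adjusted p (0.23, SE 0.076, adjusted p = 0.0265, DESeq2) in the authors' deposited table, and with adjustment over all rows of the table it was not (adjusted p = 0.0509). Des, at 0.58, thus had the same sign as every contractile gene measured and lay below their median. Myh3, the embryonic myosin heavy chain gene, had 1.11 (SE 0.612, adjusted p = 0.235), and Actc1, the cardiac actin gene of early muscle, 0.69 (SE 0.551, adjusted p = 0.442), by DESeq2 in the authors' deposited table. Of the 23, 4 had an unadjusted p under 0.05 by DESeq2. Among the 17 with an adjusted p, the median SE was 0.506 and the median log2 change 0.76. With 2 and 3 libraries, the direction of 23 genes of 1 cell type is not 23 independent observations.

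The relatives of Speg and Obsl1 in the titin, obscurin and M-band list also lay mostly above 0. Of 14 genes, 13 had a value, 11 of them above 0, with a median of 0.70. Of the 6 with an adjusted p, 3 rose, where 3.81% of all 11218 such genes were called higher. Of the 13, 5 had an unadjusted p under 0.05 by DESeq2, as 2928 of the 11218 did. Mybpc1, a myosin binding protein gene, was 2.40-fold higher in Inv1DelCTCF (log2 change 1.26, SE 0.194, adjusted p = 4.11e-08, DESeq2) in the authors' deposited table. Myom1, the M-band gene whose product binds obscurin-like 1, rose by 0.70 (SE 0.220, adjusted p = 0.0205) and Palld, an actin binding protein gene, by 0.22 (SE 0.069, adjusted p = 0.0220) by DESeq2 in the authors' deposited table. Ttn itself had 0.82 (SE 0.593) and did not pass. Speg and Obsl1, at -0.14 and 0.08, lay below that median.

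The triad list of Speg held 9 genes, 7 above 0, with a median of 0.27 and none called of 5. Its most abundant members, the calcium pump gene Atp2a2 (-0.01, SE 0.073) and the dynamin gene Dnm2 (-0.18, SE 0.075), did not pass in the authors' deposited table, and 2 of the 9 had an unadjusted p under 0.05 by DESeq2. Ryr1, the calcium release channel gene, passed at 0.50 once the GC and length trend was subtracted (adjusted p = 0.0121 by the normal test over DESeq2 values). In the 3M complex list of Obsl1, 3 of 6 genes lay above 0, the median was 0.00, and 2 had an unadjusted p under 0.05 by DESeq2. Cul7, the scaffold, had -0.14 (SE 0.072, adjusted p = 0.190) and Ccdc8, a further partner, 0.07 (SE 0.066, adjusted p = 0.532) by DESeq2 in the authors' deposited table. Fbxw8, the substrate receptor that works with Cul7, fell by 0.25 (SE 0.064, adjusted p = 0.00352, DESeq2) in the authors' deposited table. At -0.08 Fbxw8 did not pass once the GC and length trend was subtracted (adjusted p = 0.566 by the same normal test over DESeq2 values). Of 12 desmin partners and intermediate filament genes, 5 lay above 0, with a median of -0.03, and 5 had an unadjusted p under 0.05 by DESeq2. Plec and Jup, genes of linkers at cell junctions that epithelia use too, fell by 0.47 (SE 0.0999) and 0.36 (SE 0.088) in the authors' deposited table. Both calls were lost after the GC and length trend was subtracted (adjusted p = 0.332 and 0.25 by the normal test over DESeq2 values). Nes, the nestin gene, then passed at 0.39 (adjusted p = 0.00359 by the same DESeq2-based test).

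**Figure D5:**
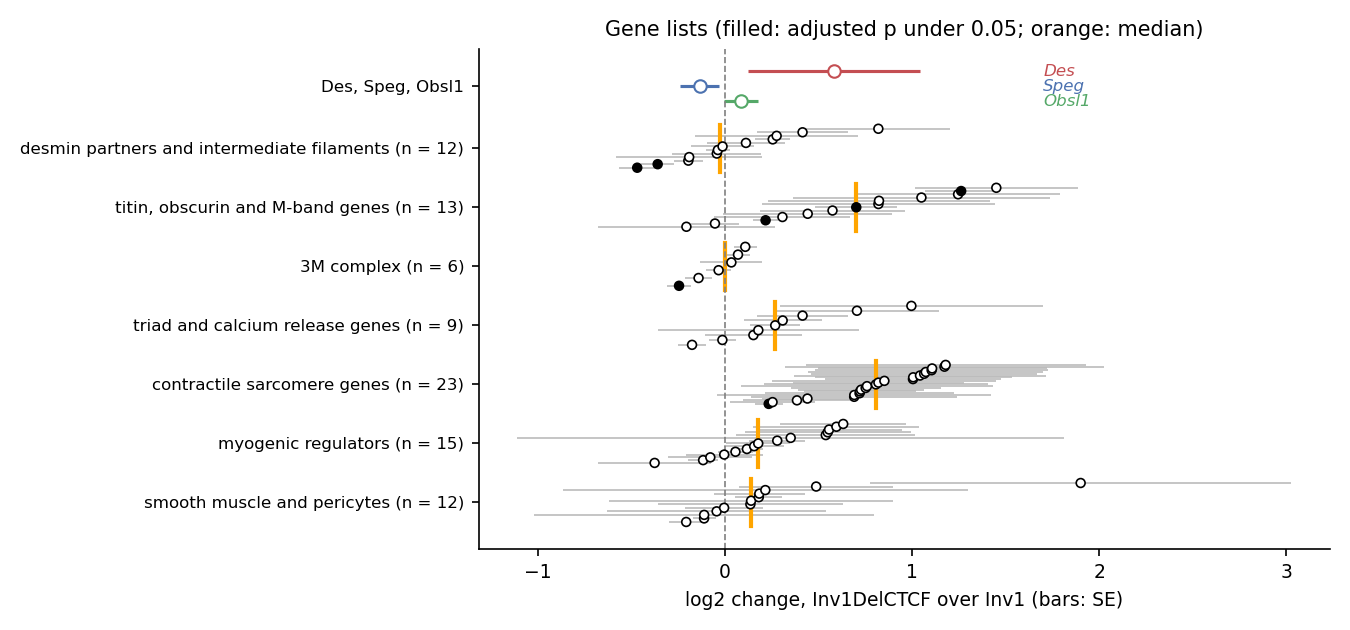
Log2 changes with SE in Inv1DelCTCF over Inv1 for Des, Speg and Obsl1 and for 7 gene lists, with the list median in orange and called genes filled. All 23 contractile sarcomere genes lie right of 0 with a median of 0.81 and wide bars; Des lies at 0.58, Speg at -0.14 and Obsl1 at 0.08.

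Regulators of muscle had a median below that of the contractile genes, but their ranges overlapped and the difference was not tested. Of 17 myogenic regulators 15 had a value, 11 above 0, with a median of 0.18 and none called of 12 nor any with an unadjusted p under 0.05 (DESeq2). Among progenitor genes, Pax3 had -0.08 (SE 0.225), Pax7 0.54 (SE 0.479) and Lbx1 -0.38 (SE 0.303), the lowest of the list, on the log2 scale in the authors' deposited table. The determination genes Myf5 and Myod1 had 0.00 (SE 0.205) and 0.18 (SE 0.17), and Myog, the gene of differentiating myocytes, 0.56 (SE 0.391), in the authors' deposited table. Mef2a (0.12, SE 0.086) and Six4 (-0.12, SE 0.079), the most abundant of the list, did not pass in the authors' deposited table. Smooth muscle and pericyte genes, the other source of desmin, had 7 of 12 above 0, a median of 0.14 and no call among 6, with 1 unadjusted p under 0.05 (DESeq2). That 1 gene was Smtn, which lay below 0 at -0.21 (SE 0.090). Of the list, Pdgfrb had -0.11 (SE 0.061) and Acta2 0.49 (SE 0.413) in the authors' deposited table. Within this list the contractile genes differed widely in level, with means of 1806 for Acta2, 1614 for Smtn, 144.4 for Tagln, 9.61 for Myh11 and 4.64 for Cnn1 in the authors' deposited table. The contractile list and Des lie on the same side of 0 in this comparison, and the part of muscle content in the value of Des was not tested.

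Markers of the labelled tissue were abundant in that table. Prrx1 and Hoxd13, genes of limb and distal limb mesenchyme, had means of 25893 and 19242, and Hoxa13 was the only one of 8 mesenchyme genes called (it fell by 0.30, SE 0.102, adjusted p = 0.0330, DESeq2), in the authors' deposited table. Of the 8, 4 had an unadjusted p under 0.05 by DESeq2, among them Msx1, a gene of distal mesenchyme, which the authors' deposited table lists at -0.99 (SE 0.421, adjusted p = 0.103). With the GC and length trend subtracted Hoxa13 had -0.23 and did not pass (adjusted p = 0.209 by the normal test over DESeq2 values). Ectoderm genes were also measured. Of the 3, Krt14 (-0.12) and Epcam (-0.18) did not pass, nor did Fgf8 at -1.20 (SE 0.609), in the authors' deposited table. The hindlimb genes Tbx4 and Pitx1 had means of 642.3 and 19.2 and log2 changes of -0.15 (SE 0.106) and -1.42 (SE 0.787) in the authors' deposited table, and neither passed. Changes of the size of the contractile median were thus also listed for Msx1, Fgf8 and Pitx1, in the other direction, and the part of tissue makeup in any of these values was not tested. Heart muscle genes had low means of 23.8 for Myh6 (log2 change 0.70, SE 0.520), 4.51 for Nppa and 3.02 for Myl7 in the authors' deposited table, and Nkx2-5 was listed at 0.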

How the data were processed

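RNA libraries of distal forelimbs were processed by the submitters with STAR and DESeq2 on mm9, per the submitters' processing notes, without versions. Per the file headers, each deposited table holds the mean of normalised counts (a signal pooled over the libraries of a fit), a log2 fold change with its SE, a Wald score, a p-value and an adjusted p-value. The inversion tables share 1 mean per gene, and the Inv1DelCTCF table is a separate fit. A call is a deposited adjusted p under 0.05, and 3 libraries of embryonic stem cells were not analysed here. Headers do not name the numerator. Inv1 levels rebuilt from both fits over 49 genes with a mean of at least 300 left a median absolute residual of 0.0124 when positive is higher in the inversion and, as deposited, in Inv1. Under the other sign conventions it was 0.107 or more. Signs of the Inv1DelCTCF comparison were therefore reversed.

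Intervals are the change plus or minus the 95% normal range of its SE. Where the deposited change appears shrunken, as for Des in the inversions, they need not cover the unshrunken change at that rate. The GC and length trend was cubic in both, fitted over the 94.0% of tested genes with a GENCODE transcript. Named genes are the 3 members, the listed genes from Dnpep to Slc4a3, the 3 nearest in pattern to each member, 5 myogenic genes, and the called or most abundant genes of each list. Myh3, Actc1, Ttn, Cul7, Ccdc8, Nes, Ryr1, Prkag3, Prrx1, Hoxd13, Fgf8, Myl7, Nkx2-5, Myh8, Msx1, Igfbp5, Smtn, Tagln, Myh11, Cnn1 and Lbx1 were named outside this rule after their values were seen. The members and lists were chosen with earlier results of these data known. Steps across genes were tested on simulated data. For the undoing of shrinkage, the simulation held no noise and covered only genes more precise than Des and Prkag3. It therefore does not test the values given for these genes. Software was SciPy 1.17.1, numpy 2.4.6 and pandas 2.3.3 under Python 3.11.15, with plots from matplotlib 3.10.9.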

Additional observations from a re-analysis of the deposited data

How the results depend on the processing

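At an adjusted p under 0.01, 0 of the 3 genes were called in Inv3 and 0 in Inv4, since Des has adjusted p values of 0.0129 and 0.0339 by DESeq2. An adjusted p under 0.1 and adjustment over the rows of each table left every count of called members as it was in all 5 comparisons. With the GC and length trend subtracted in Inv1DelCTCF, 1 of the 3 was called, Obsl1, and Speg turned to 0.14. The cause was not tested. With the covariance of the shared WT libraries taken out, or with a mean of at least 10, still 0 of 18 differences between inversions passed, and the adjusted p of Des in Inv3 minus Inv1 was 0.135 without that covariance, from a normal test over DESeq2 values. With Wald scores in place of log2 changes, 4 of the 9 genes nearest in pattern remained, 2 of them for Des, whose nearest gene was then Igfbp5, with Kcne4 at rank 3. With shrinkage undone the WT level of Des was 223.5. The sign convention was the best of 4 at each minimum mean. Over all genes, adjustment over the rows of the Inv1DelCTCF table called 301 higher and 621 lower, and trend subtraction 207 higher and 177 lower, against 427 and 885 as deposited. All 11 lists, mesenchyme included, together held 8 calls as deposited (4 higher and 4 lower), 7 over the rows (4 higher and 3 lower) and 6 with the trend subtracted (6 higher and 0 lower). Among genes with an adjusted p, the deposited calls were 3 of 6 in the titin list and 2 of 8 desmin partners. The rest were 1 of 17 contractile, 1 of 6 3M and 1 of 8 mesenchyme genes. None came from 5 triad, 12 myogenic, 6 smooth muscle, 3 ectoderm and 1 hindlimb genes. Over all 11218 genes with an adjusted p, 11.7% were called. No paired analysis was possible because the tables hold no value per library, so neither a replicate block nor leaving out a replicate could be run. Depth per library is unknown, and 5, 4, 3 and 2 libraries a group limit the precision.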
